A study of Rattus norvegicus with 8 samples.

Results

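AP-1 is a family of transcription factors that bind DNA as pairs of basic leucine zipper (bZIP) proteins, and 10 genes that encode such subunits were followed here: *Fos*, *Fosb*, *Fosl1* and *Fosl2* of the Fos family, *Jun*, *Junb* and *Jund* of the Jun family, *Atf3*, and the small Maf genes *Maff* and *Mafk*. They were chosen by name, with earlier results of these data known, and all 10 were found among the 15590 genes of the table. RNA was sequenced from the right Achilles tendons of 8 wild-type male Sprague-Dawley rats aged 8 to 10 weeks, one library per rat. In the 0 h p.r. group (post-running), 4 rats ran uphill on a treadmill for 1 h and were killed straight away, and in the NC group (naïve control), 4 rats did not run. Runners were urged on with air and, where they left the belt, a weak electric stimulus, whose share in the values cannot be told apart from that of the run. For the tendon experiments of the same study, the methods have the NC rats killed together with a group that had rested after its run. The titles of these libraries give the 0 h p.r. rats as killed immediately and state no time of killing for NC. If the methods hold here, the hour of killing and the run cannot be told apart. The comparison of the groups asks which subunit genes stood higher or lower in the tendon at the end of the run.

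Fos proteins do not pair with each other and need a Jun partner, whereas Jun proteins can pair among themselves. Fos-Jun pairs bind the TPA response element TGACTCA, and pairs with members of the ATF family favour the cAMP response element TGACGTCA. Small Maf proteins lack an activation domain of their own and pair with CNC factors such as Nrf2 or with Bach proteins. Several of these genes are immediate-early genes, transcribed within minutes of growth factors, stress or stretch, without new protein being made first. In a piece of whole tendon, the level of an mRNA adds up all cells present, so that more cells of a type and more RNA per cell cannot be told apart.

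The library depth recovered from the values ran from 10660131 to 17464752 reads, and the 10 genes held 21 to 11665 reads in a library. NC replicate 2 stood apart from the other controls: it had the fewest reads, a summed level of 900138 FPKM against 554130 to 580360 FPKM in the other NC libraries, and an array weight (limma's relative precision of a library) of 0.238 against 1.53 to 1.78. The values of every library stood at a median ratio of 0.999 to 1.01 to the gene means, so the libraries shared a median scale although their sums differed. The markers of tendon cells (*Col1a1*, *Col1a2*, *Tnmd*, *Scx*, *Mkx*, *Fmod*, *Thbs4*, *Comp*) were all present, with a summed level of 3777 to 7451 FPKM (fragments per kilobase of gene length, scaled per library) in NC and 4154 to 7450 FPKM in 0 h p.r. Tissue next to the tendon was present too. Of the 10 skeletal muscle markers 8 were in the table, summing to 4652 to 7550 FPKM in NC and to 1007 to 33343 FPKM in 0 h p.r., where replicate 1 stood highest and replicate 4 lowest. All 8 adipocyte markers were in the table, and their sum was lower in every 0 h p.r. library (844 to 1804 FPKM) than in every NC library (2503 to 4635 FPKM). Of the 8, 5 were lower past the thresholds given below, which 2.7% of all tested genes passed in either direction and 1.8% upward. *Adipoq* was at a mean of 502 FPKM in NC and 162 FPKM in 0 h p.r. The 5 bone markers summed to 10.6 to 48.7 FPKM in NC and 48.9 to 162 FPKM in 0 h p.r., and the 5 of 6 cartilage markers in the table to 7.68 to 89.9 FPKM and 95.7 to 379 FPKM, both higher in all 4 run libraries. No single bone or cartilage marker was past the thresholds, and some, such as *Ibsp* and *Col2a1*, overlapped between the groups. Macrophage markers summed to 117 to 199 FPKM in NC and 100 to 195 FPKM in 0 h p.r., endothelial markers (4 of 5 in the table) to 175 to 231 FPKM and 154 to 231 FPKM, and Schwann cell markers to 286 to 452 FPKM and 178 to 310 FPKM. The neutrophil markers (4 of 6 in the table) summed to at most 4.67 FPKM in any library. Of these, *S100a9* was at means of 0.362 and 1.49 FPKM in NC and 0 h p.r., and *Mpo* at 1.88 and 0.339 FPKM. *S100a9* passed the filter on low values only through the run libraries, and *Mpo* only through the NC libraries. A difference was thus bound to be found for both, and their calls carry no weight. The erythroid markers (3 of 5) summed to 157 to 600 FPKM in NC and 135 to 501 FPKM in 0 h p.r. No marker found in the table was at 0 in all libraries, and the part of these tissues in the values below was not tested.

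Across the 10 subunit genes, 7 rose after the run: *Fos*, *Fosl1*, *Fosl2*, *Junb*, *Jund*, *Atf3* and *Maff* had an adjusted p under 0.05 (limma with Benjamini-Hochberg adjustment over 13863 tested genes) and a fold of at least 2. None fell. Of all tested genes, 1.8% were past both thresholds in the upward direction, and 2.7% in either direction. Without the fold threshold 8 of the 10 had an adjusted p under 0.05, *Mafk* being added, against 5.72% of all genes. In 9 of the 10 genes every 0 h p.r. library stood above every NC library, *Fosb* being the exception, and 8.15% of all tested genes showed that separation. The median log2 fold change of the 10 genes was 1.97, that of all tested genes -0.0014, both on the scale of log2(FPKM + 0.5).

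**Figure D1:**
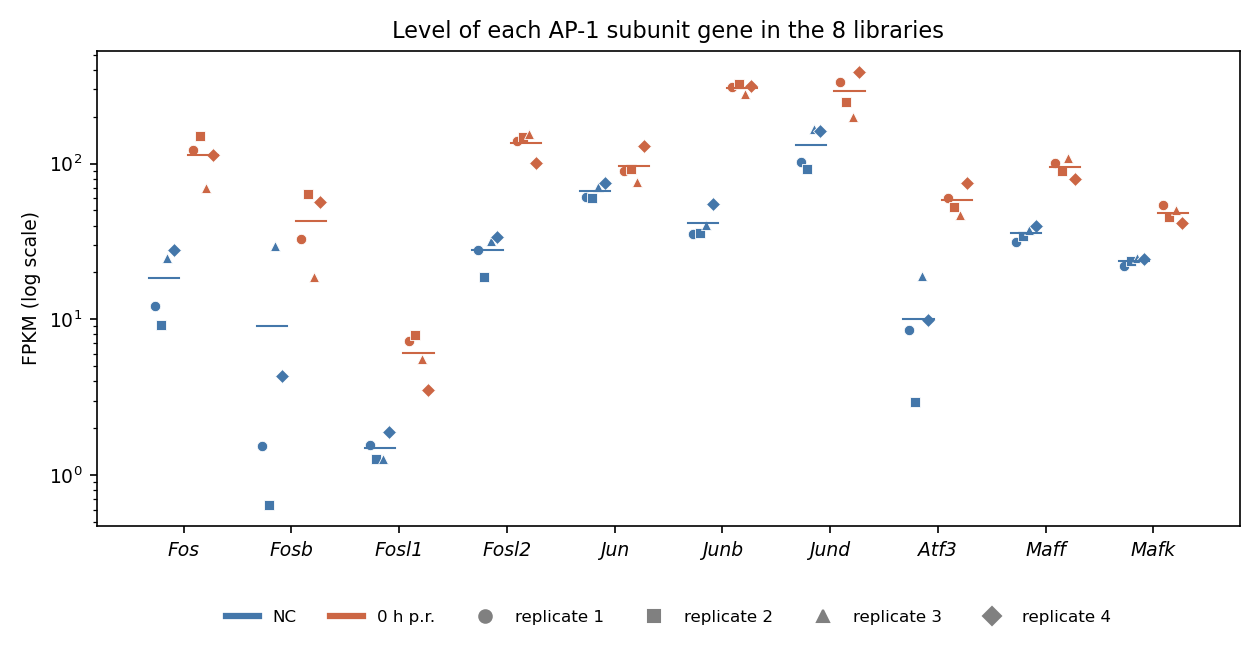
FPKM on a log axis for each subunit gene in each library, with NC in blue, 0 h p.r. in orange, one symbol per replicate number and a line at each group mean. The groups are apart for every gene but *Fosb*, in which NC replicate 3 (29.7 FPKM) lies among the run libraries, and *Jun* shows the narrowest gap.

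Among the Fos family, *Fos* (ENSRNOG00000008015) encodes c-Fos, the founding partner of Jun and the usual marker of a recently stimulated cell. It was measured at 12.2, 9.21, 24.7 and 27.9 FPKM in NC replicates 1 to 4 and at 122.6, 150.1, 69.7 and 113.1 FPKM in 0 h p.r. replicates 1 to 4. The lowest run library held 2.50 times the level of the highest NC library. The mean was 18.5 ± 9.17 FPKM (SD, n = 4) in NC and 114 ± 33.4 FPKM in 0 h p.r., a rise of 2.68 on the log2 scale (SE 0.37, 95% interval 1.84 to 3.51, limma adjusted p = 0.00618).

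*Fosb* (ENSRNOG00000046667), whose shortened splice form deltaFosB is known for its long life in stimulated cells, was the least even of the 10 genes among the controls. It stood at 1.55, 0.648, 29.7 and 4.31 FPKM in NC and at 32.7, 63.9, 18.6 and 56.7 FPKM in 0 h p.r. Of the run libraries 3 were above every NC library, while 0 h p.r. replicate 3 lay under NC replicate 3. The coefficient of variation in NC was 153%, with means of 9.05 ± 13.9 FPKM in NC and 42.9 ± 21.0 FPKM in 0 h p.r. (SD, n = 4). The log2 fold change of 3.18 (SE 0.90, interval 1.15 to 5.22) did not pass the test (limma adjusted p = 0.0735). Without NC replicate 3 it was 4.12 with a limma adjusted p of 0.0106, and without NC replicate 2 it was 2.55 with a limma adjusted p of 0.129. With any other library left out the limma adjusted p lay between 0.104 and 0.186. That library did not stand apart in *Junb*, at 40.6 FPKM, or in *Fosl1*, at 1.27 FPKM. It was the highest NC library for *Jund*, *Atf3* and *Mafk* as well.

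*Fosl1* (ENSRNOG00000020552), which encodes Fra-1, a Fos protein without the activation domain of c-Fos, was the lowest of the 10 in the run group and had the fewest reads. Its levels were 1.56, 1.27, 1.27 and 1.90 FPKM in NC, from 21 to 47 reads, and 7.28, 7.89, 5.54 and 3.53 FPKM in 0 h p.r., from 106 to 238 reads. No run library overlapped the controls. The log2 fold change was 1.67 (SE 0.24, interval 1.13 to 2.21, limma adjusted p = 0.00698), and since the added 0.5 FPKM is a sizeable part of a level near 1.50 ± 0.298 FPKM (SD, n = 4), this understates the change. The ratio of the group means was 4.04.

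*Fosl2* (ENSRNOG00000052357) encodes Fra-2, which is known from bone and connective tissue, where it takes part in matrix gene expression. It was at 27.9, 18.7, 32.0 and 33.5 FPKM in NC and at 138.8, 147.0, 154.4 and 100.4 FPKM in 0 h p.r. The lowest run library held 2.995 times the highest NC level. The mean went from 28.0 ± 6.63 FPKM to 135 ± 24.0 FPKM (SD, n = 4), or by 2.26 on the log2 scale (SE 0.21, interval 1.79 to 2.73, limma adjusted p = 0.000886). In each group *Fosl2* had the highest mean level of the 4 Fos family genes.

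In the Jun family, *Junb* (ENSRNOG00000042838), which pairs with Fos proteins and activates more weakly than c-Jun, showed the clearest separation of the 10. It was at 35.5, 36.0, 40.6 and 54.8 FPKM in NC and at 310.0, 322.7, 279.4 and 313.9 FPKM in 0 h p.r. The run libraries lay close together, with a coefficient of variation of 6.14%, and the lowest of them held 5.10 times the highest NC level. The mean went from 41.7 ± 9.01 FPKM to 306 ± 18.8 FPKM (SD, n = 4), or by 2.88 on the log2 scale (SE 0.15, interval 2.53 to 3.23, limma adjusted p = 9.70e-05). By p-value *Junb* ranked 2 among the 13863 tested genes.

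*Jund* (ENSRNOG00000019568), the Jun gene that most resting cells express throughout, was the highest of the 10 in NC. Its levels were 102.9, 92.7, 166.6 and 162.3 FPKM in NC and 335.0, 247.4, 200.1 and 384.6 FPKM in 0 h p.r. The groups did not overlap, and the lowest run library was 1.20 times the highest NC library. With means of 131 ± 38.7 FPKM and 292 ± 83.4 FPKM (SD, n = 4), the log2 fold change was 1.15 (SE 0.27, interval 0.55 to 1.76, limma adjusted p = 0.0414). The call is a narrow one: leaving out any of the 8 libraries put the limma adjusted p between 0.0517 and 0.118.

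*Jun* (ENSRNOG00000026293), the gene of c-Jun, did not pass either threshold. It was at 61.1, 59.7, 70.7 and 75.2 FPKM in NC and at 89.7, 92.6, 75.6 and 130.2 FPKM in 0 h p.r. All 4 run libraries were above all NC libraries, but the lowest of them held only 1.005 times the level of the highest control. The means were 66.7 ± 7.50 FPKM and 97.0 ± 23.3 FPKM (SD, n = 4), and the log2 fold change was 0.52 (SE 0.17, interval 0.12 to 0.91, limma adjusted p = 0.118). The interval's upper end lies under a fold of 2.

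*Atf3* (ENSRNOG00000003745) encodes a stress-induced member of the ATF family that represses as a homodimer and can activate with Jun partners. It was at 8.59, 2.95, 19.0 and 9.86 FPKM in NC and at 60.0, 52.9, 46.7 and 74.6 FPKM in 0 h p.r. The controls spread over 6.45-fold and the run libraries over 1.598-fold, and the lowest run library held 2.45 times the highest control. The mean went from 10.1 ± 6.66 FPKM to 58.5 ± 12.0 FPKM (SD, n = 4), or by 2.70 on the log2 scale (SE 0.44, interval 1.70 to 3.70, limma adjusted p = 0.0117).

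The small Maf genes were the least variable of the 10 among the controls. *Maff* (ENSRNOG00000012886), the small Maf gene best known for being induced by stress and inflammatory signals, was at 31.3, 34.0, 37.3 and 39.7 FPKM in NC and at 100.8, 89.5, 107.9 and 79.9 FPKM in 0 h p.r. The lowest run library held 2.01 times the highest control, and the mean went from 35.6 ± 3.70 FPKM to 94.5 ± 12.4 FPKM (SD, n = 4). Its log2 fold change was 1.39 (SE 0.13, interval 1.10 to 1.69, limma adjusted p = 0.000976). *Mafk* (ENSRNOG00000001277), a partner of Nrf2, was at 21.9, 23.7, 24.9 and 24.5 FPKM in NC and at 54.5, 45.4, 49.97 and 41.8 FPKM in 0 h p.r. Its groups were well apart, with means of 23.8 ± 1.303 FPKM and 47.9 ± 5.51 FPKM (SD, n = 4). The log2 fold change of 0.99 (SE 0.11, interval 0.74 to 1.25, limma adjusted p = 0.00253), a fold of 1.99, fell just under the fold threshold of 2.

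**Figure D2:**
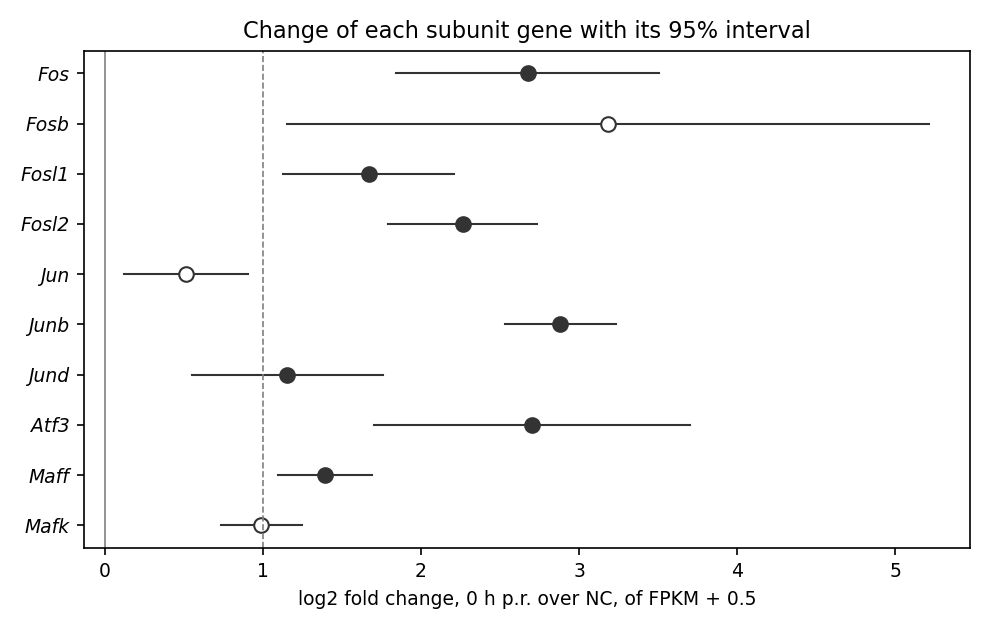
Log2 fold change of FPKM + 0.5, 0 h p.r. over NC, for each subunit gene (points) with its 95% limma interval (bars). Filled points are the 7 genes past both thresholds, open points *Fosb*, *Jun* and *Mafk*, the solid line marks no change and the dashed line a fold of 2. *Fosb* has the widest interval (1.15 to 5.22) and *Mafk* sits on the dashed line at 0.99.

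The RefSeq promoter windows of GRCr8, which run from 250 bases before to 50 bases after a gene's start, were matched by symbol for 7 of the 10 genes, and *Fos*, *Jun* and *Atf3* had no entry. The windows of *Fosl1*, *Fosl2*, *Junb*, *Jund* and *Maff* begin at the outer end of the gene and are shown because these 5 genes rose and differ in the motifs they carry. The windows of *Fosb* and *Mafk* lie at starts that are 322 and 11159 bases inside the gene and are not printed. Capitals mark matches, on either strand, to TGACG (the half-site of a cAMP response element), TGACGTCA, TATAAA (the TATA box), CCAAT (the CCAAT box) and TTCNNNGAA (a STAT site). The *Junb* window is chr19:40080876-40081175 on the plus strand, *Jund* chr16:18769722-18770021 on the minus strand, *Maff* chr7:112792537-112792836 on the plus strand, *Fosl1* chr1:212183635-212183934 on the plus strand and *Fosl2* chr6:30039220-30039519 on the minus strand, each written 5′ to 3′ along its gene.
Junb: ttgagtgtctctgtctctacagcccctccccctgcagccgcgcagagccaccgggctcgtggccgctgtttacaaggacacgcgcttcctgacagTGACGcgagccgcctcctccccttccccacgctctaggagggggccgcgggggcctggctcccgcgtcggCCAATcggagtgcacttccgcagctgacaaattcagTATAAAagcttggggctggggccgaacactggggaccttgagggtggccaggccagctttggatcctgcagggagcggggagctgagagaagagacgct
Jund: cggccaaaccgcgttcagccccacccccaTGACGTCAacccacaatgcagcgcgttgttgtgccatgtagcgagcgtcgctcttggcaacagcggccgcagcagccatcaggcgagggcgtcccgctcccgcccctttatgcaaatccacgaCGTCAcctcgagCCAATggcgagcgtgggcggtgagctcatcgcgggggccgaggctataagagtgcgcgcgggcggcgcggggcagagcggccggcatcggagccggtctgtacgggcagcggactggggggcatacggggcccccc
Maff: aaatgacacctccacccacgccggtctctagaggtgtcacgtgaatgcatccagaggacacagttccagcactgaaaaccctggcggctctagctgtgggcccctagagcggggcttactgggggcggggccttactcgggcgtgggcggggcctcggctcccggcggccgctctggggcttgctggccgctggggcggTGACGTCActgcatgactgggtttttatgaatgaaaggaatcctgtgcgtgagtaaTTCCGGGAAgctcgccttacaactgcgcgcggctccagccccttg
Fosl1: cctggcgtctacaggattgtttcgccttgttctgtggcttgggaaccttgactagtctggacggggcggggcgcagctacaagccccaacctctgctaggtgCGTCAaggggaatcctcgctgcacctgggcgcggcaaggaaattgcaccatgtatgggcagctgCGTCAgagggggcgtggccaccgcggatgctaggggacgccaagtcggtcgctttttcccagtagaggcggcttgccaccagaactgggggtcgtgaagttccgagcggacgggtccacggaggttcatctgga
Fosl2: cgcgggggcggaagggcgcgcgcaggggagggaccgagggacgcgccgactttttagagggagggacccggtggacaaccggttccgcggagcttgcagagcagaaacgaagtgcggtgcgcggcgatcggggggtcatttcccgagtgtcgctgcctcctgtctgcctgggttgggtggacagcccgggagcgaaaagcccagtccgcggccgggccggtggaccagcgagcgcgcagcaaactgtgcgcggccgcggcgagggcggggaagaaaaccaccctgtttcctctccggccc

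The complete cAMP response element TGACGTCA occurred in the windows of *Jund*, starting 221 bases before the start site, and of *Maff*, 51 bases before it, and in 1.83% of the 33469 windows of all genes. The shorter TGACG, which is also counted inside each complete element, was found in 5 of the 7 windows (*Fosl1*, *Junb*, *Jund*, *Maff*, *Mafk*) and in 21.2% of all windows. The *Junb* window held it 155 bases before the start, together with CCAAT at 85 bases and TATAAA at 49 bases before it. TATAAA was also present in the *Fosb* window, and in 14.2% of all windows, and CCAAT in the *Jund* window, and in 37.5% of all. The STAT site was in the *Maff* window, from base 6 after the start, and in 8.87% of all windows. The GC box GGGCGG was in 5 of the 7 windows (*Fosl1*, *Fosl2*, *Jund*, *Maff*, *Mafk*) and in 33.1% of all. None of the 7 windows had TGACTCA (4.63% of all) or the CArG box bound by serum response factor (1.64% of all), which says only that these letters are not in these 300 bases. The *Fosl2* window had none of the motifs but GC boxes. The 5 printed windows held 62.3% (*Fosl1*) to 70.7% (*Fosl2*) G and C, against a median of 51.7% over all windows. The shares given for all windows were not matched for G and C. The counts out of 7 include the windows of *Fosb* and *Mafk*, which lie inside the gene.

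**Figure D3:**
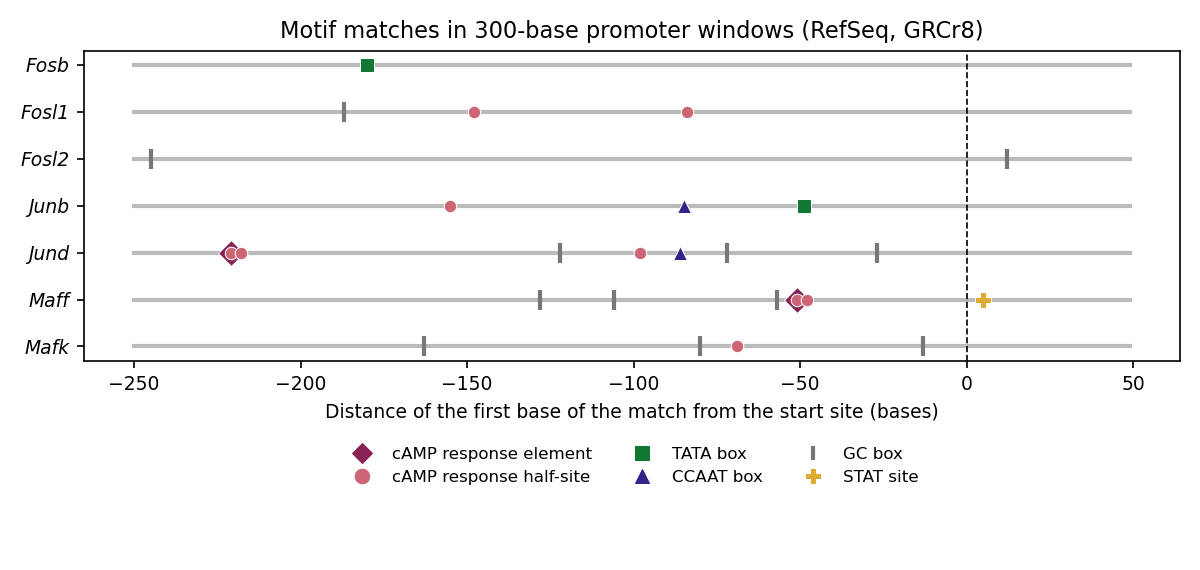
Position of each motif match, in bases from the start site (dashed line), in the 300-base RefSeq windows (GRCr8) of 7 subunit genes. Diamonds are the complete cAMP response elements of *Jund* and *Maff*, 221 and 51 bases before the start, and the dots drawn on them are the half-sites within them. Vertical bars are GC boxes, which occur in 5 of the 7 windows.

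The order of the genes by level differed between the groups, compared per gene length in FPKM. In NC it ran *Jund*, *Jun*, *Junb*, *Maff*, *Fosl2*, *Mafk*, *Fos*, *Atf3*, *Fosb*, *Fosl1*. Only *Jund* and *Jun*, and *Jun* and *Junb*, were neighbours in that order whose ranges over the 4 libraries did not overlap. In 0 h p.r. it ran *Junb*, *Jund*, *Fosl2*, *Fos*, *Jun*, *Maff*, *Atf3*, *Mafk*, *Fosb*, *Fosl1*. Here *Junb* and *Jund* did not differ beyond their spread, *Junb* being the higher in 2 of 4 libraries. Gaps between ranges separated *Jund* from *Fosl2*, *Maff* from *Atf3* and *Fosb* from *Fosl1*. The summed level of the 10 genes was 366 ± 86.6 FPKM in NC (279 to 447) and 1194 ± 128 FPKM in 0 h p.r. (1008 to 1299; SD, n = 4).

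The make-up of the Jun family differed between the groups in every library. *Junb* made up 17.6 ± 2.05% of the summed Jun family FPKM in NC (14.6% to 19.1%) and 44.8 ± 5.79% in 0 h p.r. (37.9% to 50.3%; SD, n = 4). *Jun* made up 28.4 ± 3.25% in NC and 13.9 ± 1.44% in 0 h p.r. *Jund* made up 54.1 ± 4.71% in NC (49.2% to 59.9%) and 41.3 ± 5.41% in 0 h p.r. (36.1% to 46.4%). The shares of all 3 Jun genes thus did not overlap between the groups. Shares within a family depend on each other, and the levels of *Jun* and *Jund* were themselves higher in every run library than in every control. Within the Fos family they did: *Fosl2* held 53.3 ± 13.1% in NC and 46.2 ± 11.4% in 0 h p.r., with *Fos* at 32.2 ± 6.20% and 37.7 ± 6.42%. *Fosb* held 2.17% to 33.9% of the Fos family in NC and 7.48% to 20.7% in 0 h p.r., and *Fosl1* at most 4.27% in any library. The summed Fos family level, divided by the summed Jun family level, was 0.230 ± 0.065 in NC (0.158 to 0.315) and 0.436 ± 0.094 in 0 h p.r. (0.330 to 0.557). Every run library was above every control in that ratio. These shares are descriptions of mRNA and carry no test beyond the paired comparisons given next.

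**Figure D4:**
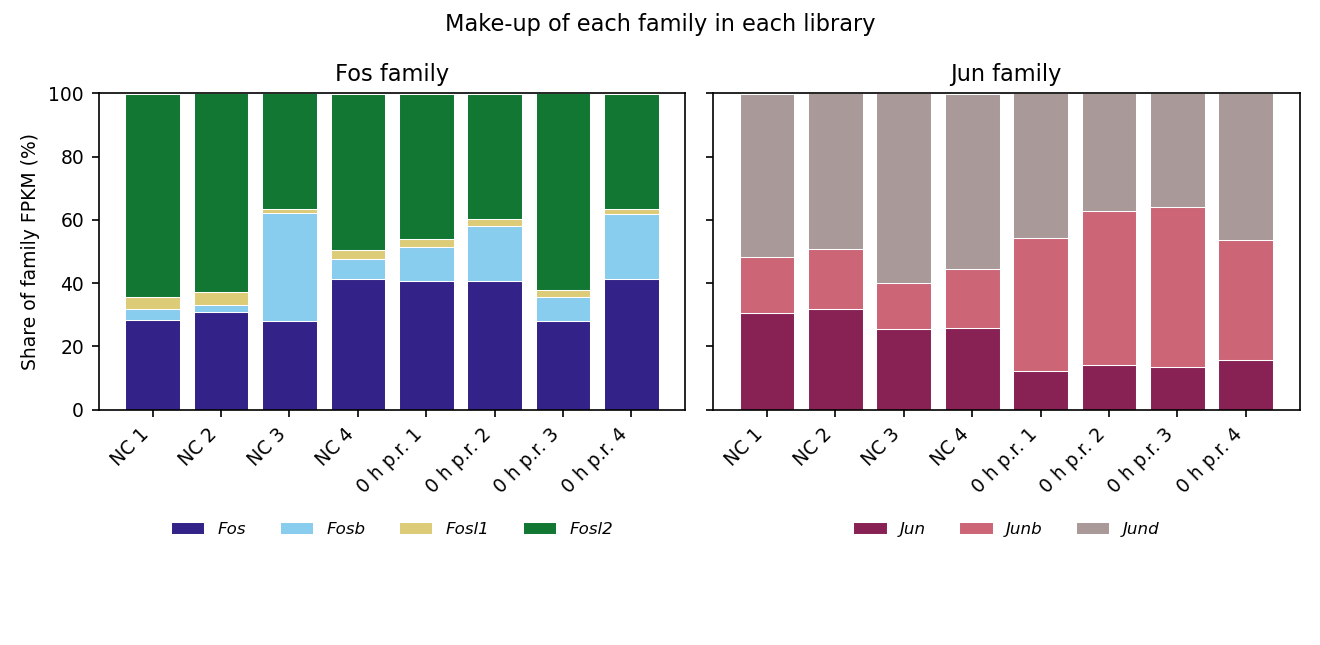
Share of the summed FPKM of the Fos family (left) and the Jun family (right) held by each gene in each of the 8 libraries, with bars stacked from 0 to 100%. *Junb* covers 14.6% to 19.1% of the Jun family in NC and 37.9% to 50.3% in 0 h p.r., and the *Fosb* block of NC replicate 3 covers 33.9% of the Fos family.

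Whether paralogues changed by different amounts was tested for 6 pairs, on the per-library difference of their log2(FPKM + 0.5) values, with an exact permutation test (two-sided). There are 70 ways to assign 4 of the 8 libraries to a group, so 0.0286 is the smallest p possible. *Junb* stood 1.61 ± 0.29 below *Jund* in NC and 0.11 ± 0.38 above it in 0 h p.r. (log2, SD, n = 4), a difference of 1.73 that was higher in 4 of 4 run libraries than in any control (exact p = 0.0286). *Jun* relative to *Jund* went from -0.93 ± 0.29 to -1.57 ± 0.23, a difference of -0.64 with all 4 run libraries below all controls (exact p = 0.0286, n = 4). *Maff* relative to *Mafk* went from 0.57 ± 0.09 to 0.97 ± 0.10, a difference of 0.40 with all 4 run libraries above all controls (exact p = 0.0286, n = 4). After adjustment over the 6 pairs each of these exact permutation p-values was 0.0571, so that none of the 6 passed 0.05. *Fosl1* relative to *Fosl2* differed by -0.59 (exact p = 0.0857, adjusted 0.129), *Fos* relative to *Fosl2* by 0.41 (exact p = 0.229, adjusted 0.274) and *Fos* relative to *Fosb* by -0.51 (exact p = 0.6, adjusted 0.6). In the last pair the controls spread over 1.53 (SD, log2).

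The libraries of a group did not rank alike across the 10 genes. Within 0 h p.r., replicate 3 was the lowest library for 6 genes (*Fos*, *Fosb*, *Jun*, *Junb*, *Jund*, *Atf3*) and the highest for *Fosl2* and *Maff*. Replicate 4 was the highest for *Jun*, *Jund* and *Atf3* and the lowest for *Fosl1*, *Fosl2*, *Maff* and *Mafk*. Replicate 2 was the highest for *Fos*, *Fosb*, *Fosl1* and *Junb*. Within NC, replicate 2, which also had the fewest reads, was the lowest for 6 genes and replicate 4 the highest for 6. Without NC replicate 2, the log2 fold change was 2.40 for *Fos*, 2.55 for *Fosb*, 2.09 for *Fosl2*, 0.46 for *Jun*, 1.00 for *Jund* and 2.25 for *Atf3*, the 6 genes for which it was the lowest control. For *Fosl1*, *Junb*, *Maff* and *Mafk* it was then 1.62, 2.82, 1.37 and 0.99. Of the 10 genes 6 were past both thresholds without it, *Jund* no longer being one (limma adjusted p = 0.0738).

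**Figure D5:**
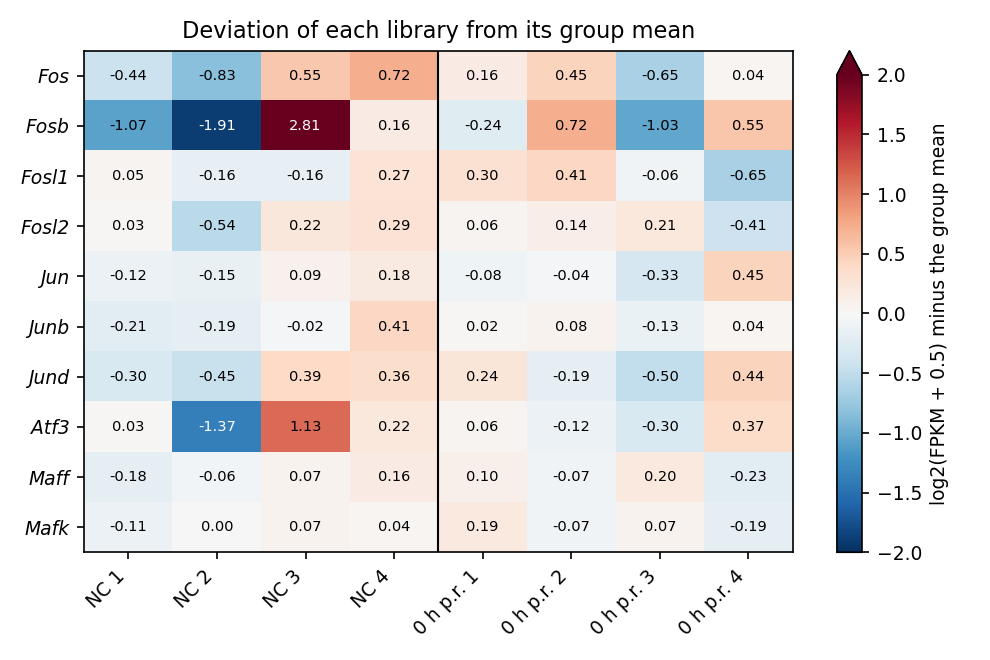
Deviation of each library from the mean of its group, in log2(FPKM + 0.5), for the 10 subunit genes, with NC to the left of the black line and 0 h p.r. to the right. Red is above and blue below the group mean, with the value in each cell and the colour scale ending at 2. *Fosb* in NC spans -1.91 to 2.81, while *Mafk* in NC stays between -0.11 and 0.07.

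Genes whose log2 level followed *Fos* most closely over the 8 libraries were *Zc3h12a* (Pearson r = 0.991), which encodes the ribonuclease regnase-1 that degrades cytokine mRNAs, *Ubap1* (0.990), *Siah2* (0.988), *Nr4a1* (0.987), an immediate-early nuclear receptor, and *Smad3* (0.987), a transducer of TGF-beta signals. Of the other subunit genes, *Junb* was at r = 0.959, *Atf3* at 0.953, *Fosl2* at 0.949, *Jund* at 0.938 and *Jun*, the lowest, at 0.843. These values include the gap between the groups. After the group means were subtracted, the genes closest to *Fos* were *Cgnl1* (0.987), *Chst15* (0.975), *Gnb3* (0.963), *Fam102b* (0.963) and *Hic2* (0.961), none of which passed the test between the groups. By that measure *Junb* stood at 0.821, *Fosb* at 0.798, *Jund* at 0.785 and *Atf3* at 0.725, while *Fosl1* (0.336), *Maff* (0.200) and *Mafk* (0.135) were lower. All these values rest on 8 points that share library and depth, and are descriptions.

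Among 32 other bZIP factors, 30 were in the table, 28 were tested, 4 rose (beside 1.8% of all tested genes) and none fell, with a median log2 fold change of 0.25. The 4 were *Crem*, a cAMP-responsive factor whose short form ICER represses cAMP signalling (5.58 to 35.8 FPKM in the means, log2 fold change 2.56, SE 0.16, limma adjusted p = 0.00021), *Cebpb* (55.7 to 166 FPKM, 1.57, limma adjusted p = 0.000299), *Cebpd* (68.5 to 241 FPKM, 1.79, limma adjusted p = 0.00205) and *Nfil3* (23.1 to 50.6 FPKM, 1.11, limma adjusted p = 0.00811). The C/EBP factors *Cebpb* and *Cebpd* are known from acute-phase and inflammatory responses. A further pair had an adjusted p under 0.05 at a smaller change, *Atf4* (0.70, limma adjusted p = 0.0338) of the amino acid response and *Nfe2l2* (0.49, limma adjusted p = 0.0328), the gene of Nrf2. *Mafg*, the remaining small Maf gene, stood at 0.71 and missed the threshold (limma adjusted p = 0.0644) with all run libraries above all controls. *Cebpa*, a regulator of fat cell differentiation, was at 45.7 ± 19.3 FPKM in NC and 16.4 ± 9.03 FPKM in 0 h p.r. (SD, n = 4), -1.53 on the log2 scale (limma adjusted p = 0.0538), in the libraries in which the adipocyte markers were lower too. *Atf2*, *Creb1* and *Jdp2*, which bind the same elements or pair with Jun, were at -0.11, 0.19 and 0.23 and did not pass (limma adjusted p = 0.629, 0.644 and 0.248). *Nfe2* and *Nfe2l3* were below the filter, and *Batf2* and *Nrl* were not analysed here.

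Of 27 upstream regulators, the MAP kinase modules and serum response factor partners that act on the *Fos* and *Jun* genes or on their proteins, 23 were tested, 2 rose (1.8% of all tested genes did) and none fell, with a median log2 fold change of 0.12. The 2 were *Map2k3*, an activator of p38 (7.47 to 20.7 FPKM in the means, 1.44 on the log2 scale, limma adjusted p = 0.0426), and *Map3k8*, a kinase of inflammatory signalling (3.21 to 7.82 FPKM, 1.13, limma adjusted p = 0.0202). Both are close calls: without 0 h p.r. replicate 2 the limma adjusted p was 0.123 for *Map2k3* and 0.06 for *Map3k8*, and when each of the 8 libraries was dropped in turn *Map2k3* was past both thresholds 2 times and *Map3k8* 5 times. *Srf*, the gene of serum response factor, was at 17.0 ± 2.70 FPKM in NC and 32.3 ± 4.96 FPKM in 0 h p.r. (SD, n = 4), a difference of 0.90 in log2 (limma adjusted p = 0.0142) under the fold threshold. The terminal kinases *Mapk3* and *Mapk14* were at -0.20 and 0.04 and did not pass (limma adjusted p = 0.41 and 0.881).

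Of 20 textbook AP-1 target genes, 17 were tested, 9 were called higher and none lower, with a median log2 fold change of 1.20. Of all tested genes, 1.8% were called higher. Both the 17 and the 9 include *Il6*, whose call carries no weight for the reason given below. The 9 became 5 without NC replicate 1, without NC replicate 3 or without 0 h p.r. replicate 2. The list was drawn from general knowledge of such targets and not from binding in this tissue. *Plaur*, the urokinase receptor, went from 9.12 to 44.2 FPKM in the means (2.17 on the log2 scale, limma adjusted p = 0.00518). *Timp1*, an inhibitor of matrix metalloproteinases, went from 79.2 to 184 FPKM (1.20, limma adjusted p = 0.032). *Plau*, urokinase itself, had a limma adjusted p of 0.0233 at a log2 fold change of 0.75. The cytokine *Il6* was at 0 to 0.326 FPKM in NC and 10.4 to 42.8 FPKM in 0 h p.r.; it passed the filter on low values only through the run libraries, so a difference was bound to be found and its call carries no weight. The chemokine *Ccl2* went from 8.11 to 77.4 FPKM (3.33, limma adjusted p = 0.00294).

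A further 4 were *Hbegf*, an EGF receptor ligand (13.5 to 69.5 FPKM, 2.51 on the log2 scale, limma adjusted p = 0.00928), *Hmox1*, haem oxygenase-1 (14.1 to 83.0 FPKM, 2.33, limma adjusted p = 0.0192), *Mt2A*, a metallothionein (243 to 647 FPKM, 1.50, limma adjusted p = 0.044), and *Cd44*, the hyaluronan receptor (17.6 to 39.5 FPKM, 1.13, limma adjusted p = 0.00817). The calls for *Timp1*, *Mt2A* and *Hmox1* were each lost when single libraries were left out, with limma adjusted p up to 0.104, 0.13 and 0.0617. The matrix metalloproteinases of the list did not pass: *Mmp3* was at -0.38 (limma adjusted p = 0.614) and *Mmp10* at -0.42 (limma adjusted p = 0.615), and *Mmp9* and *Mmp13* were below the filter, *Mmp13* at 0 to 0.445 FPKM in NC and 0.116 to 1.89 FPKM in 0 h p.r. *Ccnd1*, the gene of cyclin D1, was at -0.42 (limma adjusted p = 0.107). *Spp1*, the gene of osteopontin, which cartilage and bone cells make in quantity, stood at 357 ± 86.7 FPKM in NC and 1032 ± 655 FPKM in 0 h p.r. (SD, n = 4; limma adjusted p = 0.0769), with the summed bone and cartilage markers higher in the same libraries. *Csf2* was not analysed here.

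For 3 of the 10 subunit genes another gene overlaps on the RefSeq annotation of GRCr8: the non-coding LOC103691049 at *Fosb*, *Garin4* at *Atf3* and the non-coding LOC102546414 at *Mafk*. The libraries keep strand, but whether counting used it is not given in the sources used here, so reads of these overlapping genes may not have been kept apart.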

How the data were processed

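Poly(A) RNA of 8 tendons (4 NC, 4 0 h p.r.) was sequenced as stranded libraries. Per the labels and the study's methods, the authors aligned reads to Rnor_6.0 with HISAT2 2.1.0, counted them per gene with featureCounts 1.6.3 and ran DESeq2 1.30.1. The deposited values were FPKM per gene and library; its columns of the authors' own DESeq2 comparison (log2 fold change, p-value, adjusted p-value), made before the table was deposited, were not used. Whole reads were recovered from the steps of the FPKM values for 15589 of 15590 genes (99.99%, within 0.05 of a read), giving depths of 10660131 to 17464752 reads.

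Genes with at least 0.5 FPKM in at least 4 of 8 libraries (13863) were fitted on log2(FPKM + 0.5) with limma 3.58.1 in R 4.3.3 (trended variance, two-sided, Benjamini-Hochberg adjustment). A call needed an adjusted p under 0.05 and a fold of 2. Pairs of genes were compared by exact permutation. All 10 subunit genes are named; of the lists, the genes past both thresholds and up to 5 others, except some genes that are not reported here. The genes most like *Fos* were the 5 with the highest Pearson r. The members and lists were chosen with earlier results of these data known. Replicates are separate rats per the study's methods. Alternatives were other pseudocounts (0.1, 1), filters (none, a mean of 2 FPKM), scalings (median ratio, quantile), array weights, voom on the recovered reads, a replicate block, no fold threshold, and leaving out each library. RefSeq promoter windows (GRCr8) gave sequence only.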

Additional observations from a re-analysis of the deposited data

Results flagged for a closer look

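The level of *Fosb* in NC replicate 3, at 29.7 FPKM against 0.648 to 4.31 FPKM in the other NC libraries, lay so far from them that the gap took up 0.874 of the group's range, above Dixon's 95% critical value for 4 samples. It was the only one of 20 groups tested (10 genes in 2 groups of 4) to do so. Chance alone passes that value in about 1 of 20 groups if values are normally distributed. The gap was taken on FPKM and not on log2(FPKM + 0.5). On the log2 scale the deviation from the NC mean was 2.81 in NC replicate 3 and -1.91 to 0.16 in the others. Whether NC replicate 3 stands out on that scale was not tested. The same library was the highest NC library for *Atf3* (19.0 FPKM), *Jund* (166.6 FPKM) and *Mafk* (24.9 FPKM), and the lowest for *Fosl1* (1.27 FPKM).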

How the results depend on the processing

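The count of genes past both thresholds, 374, was 212 with the replicate block, 793 without the fold threshold, and 195 to 516 when 1 library was left out, the lowest without 0 h p.r. replicate 2, with 201 without 0 h p.r. replicate 3 and 217 without NC replicate 1. The count of the 10 subunit genes stayed at 6 to 8 in all settings. *Fos*, *Fosl1*, *Fosl2*, *Junb*, *Atf3* and *Maff* kept their calls in every setting run. Median-ratio scaling says little here, since the values already stood at a median ratio of 0.999 to 1.01 in every library. *Jund* lost its call with quantile scaling (limma adjusted p = 0.0809), the replicate block (0.0904), array weights (log2 fold change 0.92) and each left-out library. *Mafk* passed the fold of 2 with a pseudocount of 0.1 (1.00), with voom on the recovered reads (1.01) and without each of 4 single libraries. *Fosb* passed only without NC replicate 3. The replicate numbers do not pair the rats: same-numbered libraries correlated at -0.14, -0.07, 0.07 and 0.01. With the block the upstream regulators past both thresholds went from 2 to 0, the AP-1 targets from 9 to 6 and the other bZIP factors from 4 to 3, with *Nfil3* (limma adjusted p = 0.0576), *Cd44* (0.0531) and *Mt2A* (0.0742) among the calls lost. Leaving out a library gave 0 to 2 upstream regulators, 4 to 6 other bZIP factors and 5 to 9 AP-1 targets (9 with all libraries). The AP-1 targets were 5 without NC replicate 1, NC replicate 3 or 0 h p.r. replicate 2. These counts of AP-1 targets, with the block too, include *Il6*, whose call carries no weight. For pairs, leaving out a library put *Fos* relative to *Fosb* at -1.26 to -0.15 (exact p = 0.0286 without NC replicate 3), *Fos* relative to *Fosl2* at 0.26 (without NC replicate 1) to 0.70 (without 0 h p.r. replicate 3, exact p = 0.0857), *Fosl1* relative to *Fosl2* at -0.72 (without NC replicate 3, exact p = 0.0286) to -0.47 and *Jun* relative to *Jund* at -0.74 to -0.53 (exact p = 0.0571 without each run library). With a pseudocount of 1, *Fosl1* relative to *Fosl2* was at -0.79 (exact p = 0.0286), and with 0.1 at -0.38 (exact p = 0.143). The cause of these shifts was not tested. The exact p-values of the pairs given here were not adjusted over the 6 pairs. With a library left out, 0.0286 is likewise the smallest exact p possible. No result reversed. Depth limits *Fosl1* most, at 21 reads in NC replicate 2.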
